A study of Mus musculus with 16 samples.

Results

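The mRNA of 10 genes of interleukin 2 (IL-2) receptor signalling through STAT5 was followed in regulatory T cells (Tregs) after myocardial infarction. The genes were chosen by name, with earlier results of these data known. They were the receptor chains Il2ra, Il2rb and Il2rg, the kinases Jak1 and Jak3, and the transcription factors Stat5a and Stat5b. The inhibitors Socs1, Socs2 and Cish made up the rest. Levels of mRNA do not measure receptor protein, STAT5 phosphorylation or signalling. All 10 were found among the 19195 genes analysed, were above 0 in all 16 libraries and belonged to the 10369 genes tested, which reached an FPKM (fragments scaled by gene length and library size) of 1 in 4 or more libraries.

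The mice were 8 weeks old, carried a Foxp3-GFP reporter that marks Tregs, and were sampled 7 days after infarction. The injured heart and the mediastinal lymph node (MLN), a node of the chest, gave the Tregs, which were sorted for or against the surface receptor CCR8 with magnetic beads and then by flow cytometry. Each tissue thus gave a CCR8+ and a CCR8- group, 4 groups in all with 4 libraries each and about 100 cells behind a library. All groups share the reporter and the infarct. No label says that the 4 libraries stem from different mice, so the p-values measure the spread between libraries, which may be technical. Levels are log2(FPKM + 1), differences are on that log2 scale with their standard error (SE), folds are ratios of FPKM + 1, and adjusted p-values are from limma with Benjamini-Hochberg adjustment over all genes tested.

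IL-2 binds a receptor of an alpha chain (Il2ra, also called CD25), which raises affinity, and of a beta and a gamma chain, which carry the signal. Those chains hold the kinases JAK1 and JAK3, which phosphorylate STAT5A and STAT5B, and STAT5 then switches on genes that include Il2ra itself and the feedback inhibitors Cish, Socs1 and Socs2. Tregs make little IL-2 of their own and depend on that of other T cells.

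Markers of the labelled cell type were looked at first. All 10 measured genes of a general T cell list and all 9 of a Treg list were above 0 in each of the 16 libraries. Cd8b1, listed for cytotoxic T cells, and Pecam1, listed for endothelial cells, were also above 0 in all 16. A level above 0 alone therefore does not single out a cell type. The summed FPKM of the Treg list was lower in MLN CCR8- Tregs (1646 to 2648) than in any library of the other groups except 1 heart CCR8- library (2538 to 4468 in that group). Ccr8 mRNA was higher in CCR8+ than in CCR8- Tregs by 1.55 ± 0.29 in heart (adjusted p = 0.0234) and by 3.18 ± 0.29 in MLN (adjusted p = 3e-06), and Foxp3 passed in no comparison. The Ccr8 level of the heart CCR8- libraries (8.20 to 8.73) was above that of every MLN CCR8+ library (7.39 to 8.18), so the sorted groups do not hold like Ccr8 mRNA levels in both tissues. Heart libraries also held transcripts of other cells. The summed FPKM of 10 fibroblast genes was 199 to 2101 in heart CCR8-, 14.9 to 383 in heart CCR8+ and at most 6.35 in the MLN groups. That of 10 endothelial genes reached 5200.4 in heart CCR8- replicate 3, and that of 12 macrophage and monocyte genes reached 2960.2 in heart CCR8+ replicate 2. In these bulk libraries a change in the share of cells with a transcript and a change in the amount per cell cannot be told apart.

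Of the 10 genes, 4 (Il2ra, Il2rb, Socs2 and Cish) rose in CCR8+ against CCR8- Tregs of the MLN and none fell, where 4.14% of all genes tested were called and 2.04% were called higher. In the heart none of the 10 was called, against 0.366% of all genes, and at an unadjusted p under 0.05 there were 3 in limma (Il2ra, Jak1 and Stat5b), against 11.1% of all genes. Between heart and MLN, Il2rb fell in CCR8+ Tregs (1 of 10, against 9.79% of all genes called and 3.97% called lower) and Cish rose in CCR8- Tregs (1 of 10, against 4.56% called and 2.95% called higher). The median difference of the 10 genes was 1.68 in the MLN, beside -0.04 over all genes, and -0.25 in the heart, beside 9.04e-05 over all genes. Between the tissues it was 0.98 in CCR8- Tregs, beside -0.10 over all genes, and -0.11 in CCR8+ Tregs, beside -0.08.

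In 3 of the 10 genes (Il2ra, Il2rb and Cish) all 4 MLN CCR8+ libraries lay above all 4 MLN CCR8- libraries, and so did 4.62% of all genes. In the heart the CCR8+ libraries lay above the CCR8- libraries in this way in 2 of the 10 (Il2ra and Socs2), against 3.45% of all genes. Between the CCR8+ groups none of the 10 was without overlap in either direction, against 17.8%, and between the CCR8- groups 2 were higher in heart without overlap (Jak3 and Cish), against 5.24%.

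**Figure D1:**
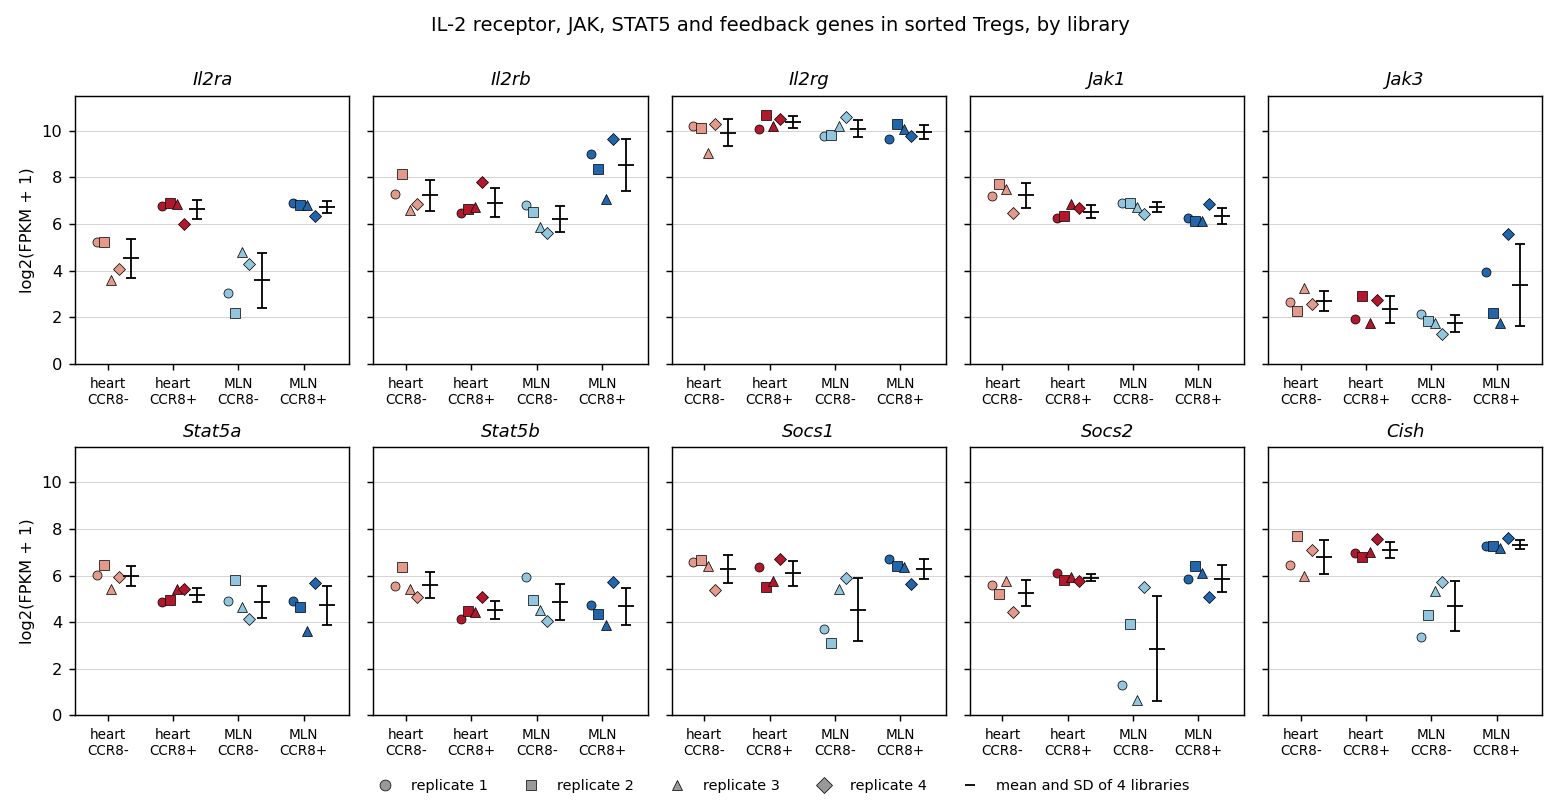
Level of each of the 10 genes, as log2(FPKM + 1), in every library of the 4 groups, with the mean and SD of 4 libraries beside the points. Il2ra stands between 6.02 and 6.90 in all 8 CCR8+ libraries and between 2.21 and 5.23 in all 8 CCR8- libraries, and Cish is lowest in MLN CCR8- Tregs.

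The receptor chains are described first. Il2ra (chromosome 2, 11642807 to 11693193, plus strand, GRCm38) was at 6.90, 6.80, 6.83 and 6.33 in MLN CCR8+ replicates 1 to 4 and at 3.06, 2.21, 4.81 and 4.28 in the MLN CCR8- replicates. In heart it was at 6.77, 6.90, 6.85 and 6.02 in the CCR8+ replicates and at 5.21, 5.23, 3.59 and 4.07 in the CCR8- replicates. The CCR8+ libraries of both tissues formed a narrow band above all CCR8- libraries, and within MLN CCR8- Tregs replicates 1 and 2 were the lowest.

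In the MLN, Il2ra was 8.74-fold higher in CCR8+ than in CCR8- Tregs, a difference of 3.13 ± 0.49 (adjusted p = 0.00131). The heart difference was 2.11 ± 0.49, or 4.32-fold, with groups that did not overlap, and its adjusted p was 0.0755. It passed when MLN CCR8- replicate 2 (adjusted p = 0.0358) or replicate 3 (adjusted p = 0.0464) was left out of the shared fit, which left the heart libraries as they were. With only the heart groups in the fit it did not pass, nor with a covariate for markers of other cells. The test of whether heart and MLN differed in this CCR8 difference gave -1.02 ± 0.69 (adjusted p = 0.579). Averaged over the tissues, Il2ra was 6.14-fold higher in CCR8+ Tregs (2.62 ± 0.35, adjusted p = 0.000325), where 3.29% of all genes were called and 1.81% called higher. CCR8+ Tregs of heart and MLN differed in Il2ra by -0.08 ± 0.49 (adjusted p = 0.945), and that sign turned to 0.56 with a covariate for markers of other cells and to 0.12 without heart CCR8+ replicate 4. CCR8- Tregs of heart and MLN differed by 0.94 ± 0.49 (adjusted p = 0.322).

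Il2rb (chromosome 15, 78479256 to 78495271, minus strand), the signalling chain that the IL-15 receptor also uses, was at 9.004, 8.38, 7.07 and 9.67 in the MLN CCR8+ replicates and at 6.80, 6.54, 5.87 and 5.60 in the MLN CCR8- replicates. In heart it was at 6.45, 6.66, 6.73 and 7.82 in the CCR8+ replicates and at 7.31, 8.13, 6.59 and 6.88 in the CCR8- replicates. The MLN groups did not overlap, the heart groups did, and MLN CCR8+ replicate 3 stood closest to the other groups.

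The MLN difference of Il2rb was 2.33 ± 0.46, or 5.02-fold (adjusted p = 0.00711; 0.063 without MLN CCR8- replicates 3 and 4), while the heart difference was -0.31 ± 0.46 (adjusted p = 0.864). The difference between these was -2.64 ± 0.65 and did not pass (adjusted p = 0.099), as was so for all 10 genes, against 0.405% of all genes called. At an unadjusted p under 0.05 there were 4 of the 10 in limma (Il2rb, Socs1, Socs2 and Cish), against 12.3% of all genes, and without MLN CCR8+ replicate 3 that of Il2rb passed (-3.13, adjusted p = 0.0148). Heart CCR8+ Tregs held less Il2rb than MLN CCR8+ Tregs, by -1.61 ± 0.46, so that the MLN level was 3.06-fold higher (adjusted p = 0.0304), with overlapping groups. This call was lost without heart CCR8+ replicate 1 (adjusted p = 0.0853), 2 (0.0804) or 3 (0.0737) and without MLN CCR8+ replicate 1 (0.0942), 2 (0.0539) or 4 (0.123). It was also lost with a covariate for markers of other cells (-1.38, adjusted p = 0.278). Between these groups the summed FPKM of the fibroblast genes was 14.9 to 383 in heart and 0.115 to 6.35 in MLN. That of 10 genes listed for type 2 innate lymphoid cells was 1373 to 1793 in heart and 61.0 to 94.2 in MLN. Of its 8 tested genes, Areg, Calca, Rora, Klrg1 and Gata3 were called, all higher in heart. Il13, Il5, Il9r, Il17rb and Hpgds were not called or not tested. Which cells held these transcripts was not tested. B cell genes were higher in MLN, as Il2rb was, with sums of 64.1 to 387 against 0.617 to 52.9 in heart and 1 of 4 tested genes (Cd79a) called. Each list behind the covariate averaged higher in both heart groups than in both MLN groups. For the fibroblast genes the mean log2 level was 3.95 (CCR8-) and 2.67 (CCR8+) in heart and 0.16 and 0.17 in MLN. A call lost with the covariate therefore cannot tell these cells from the tissue. The part of fibroblasts, B cells and innate lymphoid cells in the Il2rb difference was not tested.

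Il2rg (chromosome X, 101264378 to 101268255, minus strand), the gamma chain shared by the receptors of IL-2, IL-4, IL-7, IL-9, IL-15 and IL-21, ranged from 9.05 to 10.69 over the 16 libraries and passed in no comparison. It ranked between 111 and 272 among all genes in every library. The means ran from 9.92 ± 0.58 (SD, n = 4) in heart CCR8- to 10.38 ± 0.28 (SD, n = 4) in heart CCR8+ Tregs, and all groups overlapped. Its span shares a strand with the annotated gene Gm20489, whose reads cannot be told apart from those of Il2rg where both overlap.

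The balance of the alpha and beta chain was also taken within each library. The difference Il2ra minus Il2rb was 0.32, 0.24, 0.11 and -1.80 in the heart CCR8+ replicates, and -2.09, -2.91, -3.002 and -2.81 in the heart CCR8- replicates. Heart CCR8+ Tregs were thus the group in which Il2ra reached the level of Il2rb, in 3 of 4 libraries. In MLN the same difference was -2.10, -1.59, -0.24 and -3.33 in the CCR8+ replicates and -3.74, -4.33, -1.06 and -1.32 in the CCR8- replicates, with overlapping groups.

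**Figure D2:**
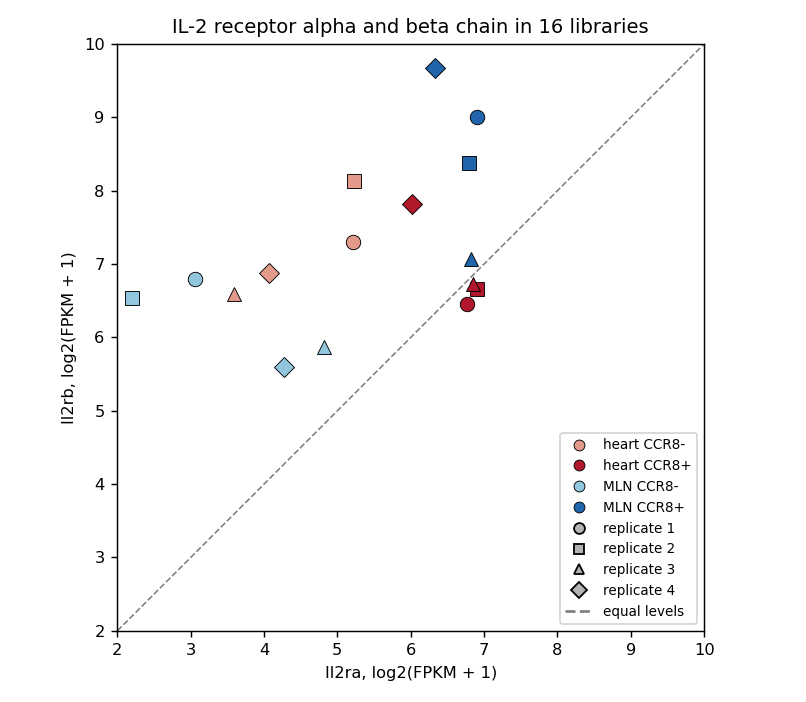
Il2ra (x axis) against Il2rb (y axis), both as log2(FPKM + 1), in the 16 libraries, with a dashed line where both are equal. The heart CCR8+ libraries other than replicate 4 lie just below the line, MLN CCR8+ libraries lie as far to the right but higher, and all CCR8- libraries lie to the left.

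Of the ligand itself little was measured. Il2 was listed at 0 in 14 of the 16 libraries and was at 2.95 in MLN CCR8- replicate 1 and at 0.34 in replicate 2. Il7r, the alpha chain of the IL-7 receptor, which Tregs usually carry at low level, averaged 6.68 ± 0.20 (CCR8+) and 6.92 ± 0.39 (CCR8-) in heart and 6.95 ± 0.23 (CCR8+) and 7.21 ± 0.44 (CCR8-) in MLN Tregs (SD, n = 4 each) and passed in no comparison. Its mRNA was thus not low here, since the means of Foxp3 ran only from 4.90 (heart CCR8+) to 5.58 (MLN CCR8+). Il15ra, the alpha chain for IL-15, ranged from 0.09 to 4.66, with an SD of 1.44 to 2.08 within the groups and group means of 1.85 to 3.60, and passed in no comparison. Among the 13 listed cytokines and receptors of the gamma chain family other than the members, 6 were tested and limma called none in any comparison, with at most 2 at an unadjusted p under 0.05.

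The kinases differed in level far more than they differed between groups. Jak1 (chromosome 4, 101152367 to 101265282, minus strand) ranged from 6.13 to 7.73, and Jak3 (chromosome 8, 71676296 to 71690575, plus strand) from 1.27 to 5.59, both per length as log2(FPKM + 1). Jak1 exceeded Jak3 in all 16 libraries, on average by 4.19 (CCR8+) and 4.54 (CCR8-) in heart and by 2.99 (CCR8+) and 4.98 (CCR8-) in MLN Tregs. Jak3 overlaps the annotated gene Insl3 on the same strand, and Jak1 so overlaps the annotated pseudogene Gm12785. Reads cannot be told apart where these genes overlap, and how far that shifts either level was not tested. Jak3, which acts on the gamma chain alone, was at 3.94, 2.20, 1.74 and 5.59 in the MLN CCR8+ replicates and at 2.13, 1.84, 1.75 and 1.27 in the MLN CCR8- replicates, so that replicates 4 and 1 of the CCR8+ group stood well above the CCR8- group, replicate 2 just above it, and replicate 3 overlapped it.

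Neither kinase passed in any comparison. The MLN difference of Jak3 was 1.62 ± 0.69 (adjusted p = 0.216), and the heart CCR8- group (2.25 to 3.26) lay wholly above the MLN CCR8- group (1.27 to 2.13), by 0.94 ± 0.69 on average (adjusted p = 0.504). Jak1 was lower in CCR8+ than in CCR8- Tregs by -0.69 ± 0.28 in heart (adjusted p = 0.342) and by -0.37 ± 0.28 in MLN (adjusted p = 0.531). Jak2, a kinase that serves other cytokine receptors, did move. It fell in MLN CCR8+ against CCR8- Tregs (-1.86 ± 0.35, adjusted p = 0.00502) and stood higher in the heart, in CCR8+ (3.29 ± 0.35, adjusted p = 6.73e-06) and in CCR8- Tregs (1.94 ± 0.35, adjusted p = 0.0028). The MLN call was lost without MLN CCR8- replicates 1 and 2 (adjusted p = 0.0676) and with only the compared groups in the fit (0.0557). The call between the CCR8- groups was lost without MLN CCR8- replicates 3 and 4, at a smaller difference (1.47, adjusted p = 0.0646). It was also lost with the covariate for markers of other cells, at a larger difference (2.31, adjusted p = 0.196).

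The STAT5 genes lie side by side on chromosome 11 and encode closely related proteins. Stat5a (100859351 to 100885169, plus strand) was at 6.03, 6.48, 5.43 and 5.95 in the heart CCR8- replicates and between 4.85 and 5.43 in heart CCR8+. Stat5b (100780731 to 100850724, minus strand) was at 5.54, 6.38, 5.43 and 5.06 in heart CCR8- and at 4.16, 4.47, 4.44 and 5.07 in heart CCR8+. In both genes the heart CCR8+ libraries were lower, with an overlap of 1 library at the edge of the groups. The differences were -0.81 ± 0.42 (adjusted p = 0.506) for Stat5a and -1.07 ± 0.45 (adjusted p = 0.376) for Stat5b, and neither passed.

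In the MLN, Stat5a differed by -0.15 ± 0.42 (adjusted p = 0.907) and Stat5b by -0.19 ± 0.45 (adjusted p = 0.885) between CCR8+ and CCR8- Tregs. The sign turned without some single libraries: to 0.16 and 0.21 for Stat5a without MLN CCR8- replicate 2 and MLN CCR8+ replicate 3, and to 0.16 and 0.08 for Stat5b without MLN CCR8- replicate 1 and MLN CCR8+ replicate 3. Averaged over CCR8, Stat5a was higher in heart than in MLN by 0.77 ± 0.30 (adjusted p = 0.0957). That difference passed without MLN CCR8- replicate 2 (0.92, adjusted p = 0.0434) or MLN CCR8+ replicate 4 (0.93, adjusted p = 0.0415). Of the 50-base windows of the longest protein-coding transcript, 15.8% of those of Stat5a and 11.8% of those of Stat5b occur unchanged in the other gene, so reads there may have been split between them. Stat5a also overlaps Stat3 on the opposite strand, and the sources used here do not say whether counting used strand.

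Among the feedback inhibitors, Cish separated MLN CCR8- Tregs from the other groups. Cish (chromosome 9, 107296026 to 107302784, plus strand), which STAT5 induces and which blocks STAT5 docking at the receptor, was at 3.37, 4.32, 5.35 and 5.73 in the MLN CCR8- replicates. It was at 7.26, 7.28, 7.17 and 7.62 in MLN CCR8+ replicates, at 6.96, 6.78, 7.01 and 7.58 in heart CCR8+ and at 6.46, 7.68, 5.97 and 7.08 in heart CCR8- replicates. All 4 MLN CCR8- libraries were below all 12 others, which overlapped each other.

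Within the MLN, Cish was 6.23-fold higher in the CCR8+ than in the CCR8- group (2.64 ± 0.43, adjusted p = 0.0015) and 4.30-fold higher in heart CCR8- than in MLN CCR8- Tregs (2.10 ± 0.43, adjusted p = 0.00647). In heart the CCR8 difference was 0.28 ± 0.43 (adjusted p = 0.866). The difference between the tissues in the CCR8 effect was -2.36 ± 0.60 and did not pass (adjusted p = 0.105), although it did without MLN CCR8- replicate 4 (-2.70, adjusted p = 0.0458). The tissue difference in CCR8- Tregs lost its call with a covariate for markers of other cells (2.60, adjusted p = 0.239), which left 5 called genes of 473 over the whole table, and with only the compared groups in the fit (adjusted p = 0.0519). Fibroblast markers, for which 9 of 10 genes were above 0 in every heart CCR8- library, were higher in heart between the same groups (199 to 2101 against 0.0663 to 4.33 in summed FPKM). So were macrophage and monocyte genes (765 to 1478 against 498 to 631, with 6 of 9 tested genes called higher) and endothelial genes (73.6 to 5200.4 against 9.92 to 41.5, with 1 of 4 called higher). Since the covariate follows tissue, it cannot tell these cells from the tissue, and their part in the Cish difference was not tested.

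The RefSeq start site of Cish carries the palindrome TTCNNNGAA, the core of the motif that STAT proteins bind. It is shown beside that of Il2ra because these are the members with the largest folds among those without overlap in the MLN. The GENCODE span of Cish given above begins upstream of that site, at 107296026, so the matches lie inside that span. Both sequences are from RefSeq on GRCm38.p6, plus strand, with matches in capitals; that of Cish is chr9:107296409-107296678 (250 bases before the start site and 20 from it on) and that of Il2ra is chr2:11642542-11642791 (250 bases before the start site).
Cish: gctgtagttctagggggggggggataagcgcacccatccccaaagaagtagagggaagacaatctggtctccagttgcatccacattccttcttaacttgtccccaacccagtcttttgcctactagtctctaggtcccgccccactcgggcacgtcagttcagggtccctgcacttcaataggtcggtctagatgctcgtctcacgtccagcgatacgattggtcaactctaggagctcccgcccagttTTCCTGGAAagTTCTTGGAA
Il2ra: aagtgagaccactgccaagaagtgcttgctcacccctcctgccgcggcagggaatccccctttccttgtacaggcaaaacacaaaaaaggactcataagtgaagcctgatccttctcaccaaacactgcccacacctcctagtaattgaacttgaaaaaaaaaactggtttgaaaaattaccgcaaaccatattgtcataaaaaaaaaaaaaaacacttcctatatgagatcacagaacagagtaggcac
The Cish window holds TTCCTGGAA from position 1 and TTCTTGGAA from position 12, counted from the RefSeq start site, and the Il2ra window holds none. Windows of 300 bases (250 before and 50 after the start) were at hand for 8 of the 10 genes, 10 windows in all, and only that of Cish held the palindrome, which reads the same on both strands. Of all 32851 windows, 8.3% held at least 1 match and 0.457% at least 2.

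Socs1 (chromosome 16, 10782240 to 10785536, minus strand), which inhibits the JAK kinases directly, was at 3.72, 3.11, 5.44 and 5.91 in the MLN CCR8- replicates and at 6.70, 6.40, 6.39 and 5.66 in MLN CCR8+. In heart it ranged from 5.38 to 6.67 in CCR8- and from 5.52 to 6.70 in CCR8+ Tregs. As for Il2ra and Cish, replicates 1 and 2 of MLN CCR8- Tregs were the lowest of all libraries, while replicate 4 overlapped the CCR8+ group. Its difference was 1.74 ± 0.51 between CCR8+ and CCR8- Tregs of the MLN (adjusted p = 0.0588) and 1.73 ± 0.51 between heart and MLN CCR8- Tregs (adjusted p = 0.0577), and neither passed. Without MLN CCR8- replicate 3 (adjusted p = 0.0355 and 0.0466) or replicate 4 (0.016 and 0.0167) both did, and without heart CCR8- replicate 4 the second did (0.0427).

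Socs2 (chromosome 10, 95385362 to 95417180, minus strand), a feedback inhibitor best known from growth hormone signalling, was at 1.32, 3.94, 0.68 and 5.50 in the MLN CCR8- replicates and at 5.86, 6.43, 6.12 and 5.08 in MLN CCR8+. In heart CCR8+ it was at 6.11, 5.82, 5.93 and 5.77, and in heart CCR8- at 5.58, 5.21, 5.75 and 4.46. The heart groups did not overlap, and the MLN groups did, through MLN CCR8- replicate 4. With an SD of 2.25 Socs2 was the most variable of the 10 genes in MLN CCR8- Tregs, where the median SD over all genes tested was 0.70, and with an SD of 0.15 the least variable in heart CCR8+ Tregs, where the median was 0.62.

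The MLN difference of Socs2 was 3.02 ± 0.72, or 8.09-fold (adjusted p = 0.0214). It did not pass without MLN CCR8- replicate 1 (adjusted p = 0.0716) or 3 (0.056) or MLN CCR8+ replicate 1 (0.0522) or 2 (0.0636), without the filter on low values (0.0793), or with only the compared groups in the fit (0.0983). The heart difference was 0.66 ± 0.72 (adjusted p = 0.791). Heart CCR8- Tregs exceeded MLN CCR8- Tregs by 2.39 ± 0.72 (adjusted p = 0.064), which passed without MLN CCR8- replicate 4 (3.27, adjusted p = 0.00387).

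Averaged over the tissues, Il2ra and Cish rose with CCR8, 2 of 10, Cish by 1.46 ± 0.30 (2.75-fold, adjusted p = 0.0102), and the median of the 10 differences was 0.71, beside -0.01 over all genes. Averaged over CCR8, only Cish of the 10 passed between heart and MLN (0.93 ± 0.30, adjusted p = 0.0469), where 13.9% of all genes were called and 7.92% called higher, and the median was 0.38, beside -0.11 over all genes. That call of Cish held when replicate 3 of heart CCR8-, or replicate 3 or 4 of MLN CCR8- Tregs, was left out and was lost without any other single library (adjusted p up to 0.0966).

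**Figure D3:**
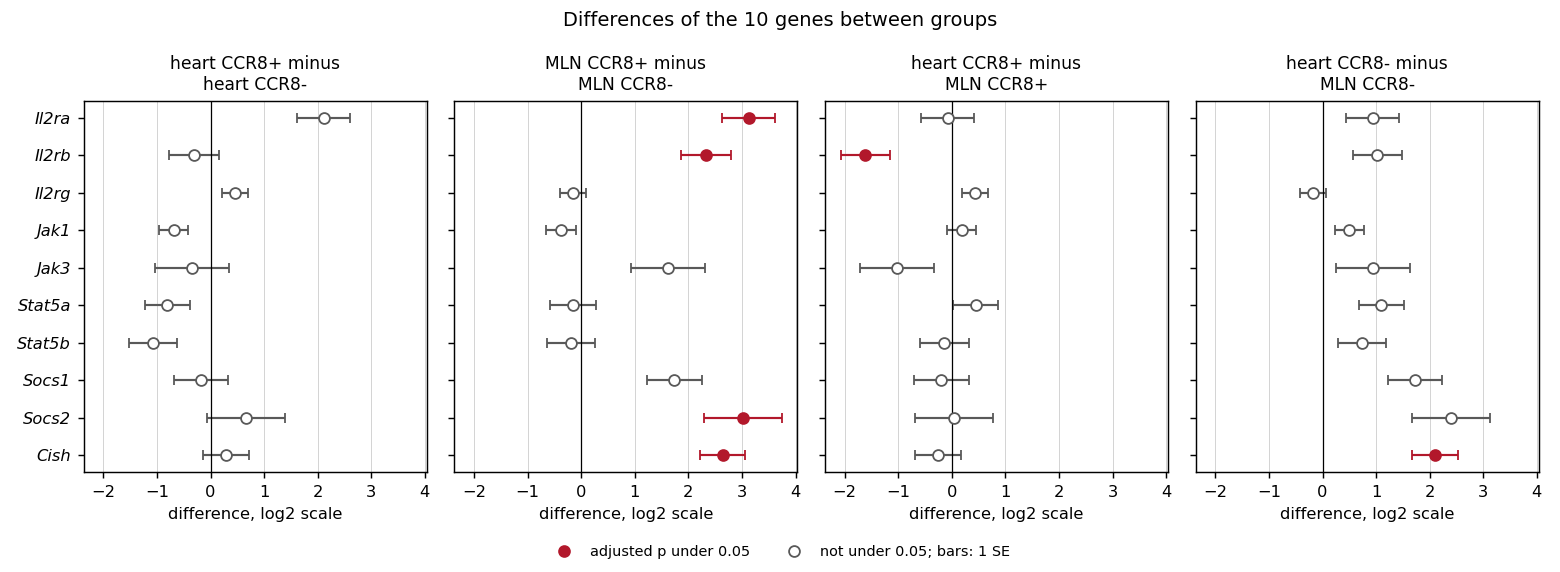
Difference of each of the 10 genes on the log2 scale, with bars of 1 SE, in the 4 comparisons of groups. Filled points passed at an adjusted p under 0.05: Il2ra, Il2rb, Socs2 and Cish between the MLN groups, Il2rb between the CCR8+ groups and Cish between the CCR8- groups.

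Transcripts of other cells were also present in the MLN groups between which these 4 genes rose. Of the genes tested, 0 of 4 B cell, 1 of 5 dendritic cell (H2-Ab1), 0 of 6 cytotoxic T and NK cell and 1 of 9 macrophage and monocyte genes (Ctss) were called by limma, the called ones higher in CCR8+ Tregs. At an unadjusted p under 0.05, 2 B cell genes were higher and 1 cytotoxic T and NK cell gene was lower. The Treg list itself had 4 of 9 genes called higher (Izumo1r, Il2ra, Tnfrsf18 and Capg), of which Il2ra is also a member here, and its summed FPKM was 3708 to 5172 in the CCR8+ against 1646 to 2648 in the CCR8- group. The summed FPKM of 9 measured B cell genes was 64.1 to 387 in the CCR8+ and 3.32 to 139 in the CCR8- group, and of these genes Ebf1 was at 0 in all 4 CCR8- libraries and none was at 0 in all 4 CCR8+ libraries. For 10 dendritic cell genes the sums were 79.5 to 441 and 2.33 to 442, with Clec9a and Cd209a at 0 in all 8 libraries. For 12 genes of cytotoxic T and NK cells they were 334 to 564 and 246 to 572, and 7 of the 12 were at 0 in all MLN CCR8+ libraries (Ncr1, Klrk1, Eomes, Prf1, Gzma, Klrd1 and Klre1). In all MLN CCR8- libraries 4 of the 12 were at 0 (Ncr1, Klrk1, Klrd1 and Klre1). Cd8b1 was above 0 in every library of both groups, at 3.36 to 5.32 (CCR8+) and 3.07 to 5.34 (CCR8-), and Cd8a was at 0 in 1 library of each. For 12 macrophage and monocyte genes the sums were 804 to 1132 and 498 to 631, without overlap. Of these 12, Adgre1, Fcgr1, Mrc1, Cd14 and Ms4a7 were at 0 in all 4 CCR8+ libraries. Adgre1, C1qa and Fcgr1 were at 0 in all 4 CCR8- libraries. Csf1r was at 0 in 3 libraries of each group, while Lyz2 was higher in the CCR8+ group (5.08 to 6.98 against 0 to 3.86). The part of any of these cells in the rise of the 4 genes was not tested.

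Genes that STAT5 is reported to switch on or off were counted as a list of 30, all of which were tested. The list was chosen with earlier results of these data known. Its counts and medians beside those of all genes are therefore a description and not a test of STAT5 activity. In the MLN, 7 rose and 3 fell in CCR8+ against CCR8- Tregs, where 4.14% of all genes were called and 2.04% called higher. The list's median difference was 0.50, beside -0.04 over all genes. In heart none was called by limma, against 0.366% of all genes. There 7 had an unadjusted p under 0.05 (5 higher and 2 lower), against 11.1% of all genes, and the median was -0.33, beside 9.04e-05. Between the tissues, 10 rose and none fell in CCR8- Tregs (heart against MLN), where 4.56% of all genes were called. The median there was 0.996, beside -0.10 over all genes. In CCR8+ Tregs 10 rose and 3 fell, where 9.79% of all genes were called, and the median was 0.43, beside -0.08. Leaving out MLN CCR8- replicates 1 and 2 gave 5 risen and 2 fallen genes in the MLN, leaving out replicates 3 and 4 gave 7 and 6, and without heart CCR8- replicate 3 and heart CCR8+ replicate 2 there were 6 and 3. With the covariate for markers of other cells no gene of the list was called between the CCR8- groups, although the differences of Id2 (2.32, adjusted p = 0.0781), Tnfrsf4 (1.69, 0.082), Tnfrsf18 (1.45, 0.0781), Ctla4 (2.18, 0.363) and Pim1 (1.54, 0.528) were not smaller than without it and that of Cdkn1a was (3.94, 0.179), and 6 rose and 1 fell between the CCR8+ groups.

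The risen genes of the MLN included regulators of growth and survival. Myc, a transcription factor that drives cell growth, was at 7.39, 7.48, 7.15 and 8.29 in the MLN CCR8+ replicates and at 2.94, 2.26, 5.21 and 2.96 in MLN CCR8-, a difference of 4.24 ± 0.59 (adjusted p = 0.000457). All CCR8+ libraries were above all CCR8- libraries, of which replicate 3 was the highest. Bcl2, which protects cells from apoptosis, rose by 2.07 ± 0.44 (adjusted p = 0.0103), and Cd83, a surface protein of activated lymphocytes and dendritic cells, rose by 2.09 ± 0.38 (adjusted p = 0.00343). Tnfrsf4 (OX40) and Tnfrsf18 (GITR), costimulatory receptors of Tregs, rose by 1.29 ± 0.21 (adjusted p = 0.00149) and 1.03 ± 0.18 (adjusted p = 0.00229).

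In heart none of these passed. Tnfrsf4 differed there by 0.90 ± 0.21 (adjusted p = 0.0692), Tnfrsf18 by 0.63 ± 0.18 (0.167) and Cd83 by 1.004 ± 0.38 (0.309), each with groups that did not overlap, while Bcl2 differed by -0.30 ± 0.44 (0.862) and Myc by 0.08 ± 0.59 (0.98). For Myc the difference between the tissues in the CCR8 effect passed (-4.16 ± 0.83, adjusted p = 0.0283). It did not pass when 1 of these libraries was left out: heart CCR8- replicate 1 (0.0563) or 2 (0.0652), MLN CCR8- replicate 1 (0.0564), 2 (0.0533) or 4 (0.0544), or MLN CCR8+ replicate 1 (0.0549) or 4 (0.0723).

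The fallen genes of the MLN were Id2, Gzmb and Cdkn1a. Id2, an inhibitor of helix-loop-helix transcription factors, was at 7.15, 6.98, 7.14 and 5.54 in the MLN CCR8+ replicates and at 8.55, 8.10, 8.00 and 8.17 in MLN CCR8-, and fell by 1.505 ± 0.27 on the log2 scale (adjusted p = 0.00327). In heart its CCR8+ libraries (11.11 to 11.62) were above its CCR8- libraries (10.17 to 10.63), by 0.94 ± 0.27 (adjusted p = 0.171). The difference between the tissues was 2.45 ± 0.38 (adjusted p = 0.00335). Gzmb, the cytotoxic protease granzyme B, and Cdkn1a, the cell cycle inhibitor p21, were listed at 0 in all 4 MLN CCR8+ libraries, against 1.74 to 7.26 and 0.81 to 4.61 in MLN CCR8- Tregs. The Gzmb call in limma was lost without MLN CCR8- replicates 1 and 2 (-3.28, adjusted p = 0.0659).

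**Figure D4:**
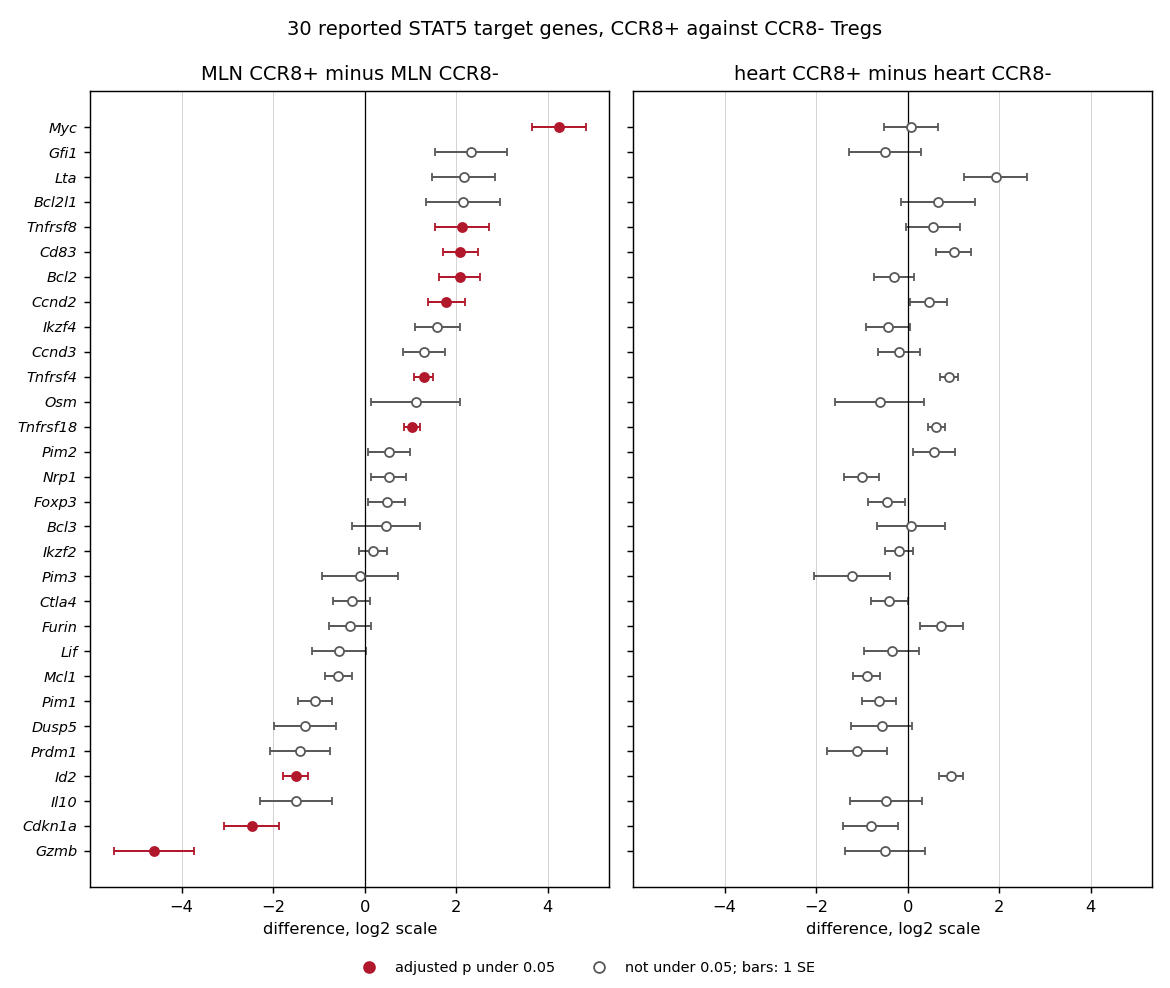
Difference between CCR8+ and CCR8- Tregs, on the log2 scale with bars of 1 SE, of 30 reported STAT5 target genes in MLN (left) and heart (right), ordered by the MLN difference. Filled points passed at an adjusted p under 0.05: 10 of 30 in MLN, from Gzmb (-4.61) to Myc (4.24), and none in heart.

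Between the tissues, the target genes with the smallest adjusted p were led by Id2 and Cdkn1a. Id2 was higher in heart than in MLN by 4.65 ± 0.27 in CCR8+ (adjusted p = 4.84e-09) and by 2.20 ± 0.27 in CCR8- Tregs (adjusted p = 9.18e-05), and Cdkn1a was higher by 5.03 ± 0.60 in CCR8- Tregs (adjusted p = 8.74e-05). Pim1, a kinase that promotes survival, was higher in heart by 1.90 ± 0.37 in CCR8+ (adjusted p = 0.00241) and by 1.44 ± 0.37 in CCR8- Tregs (adjusted p = 0.0307). Ctla4, the inhibitory receptor of Tregs, was higher by 1.63 ± 0.41 (adjusted p = 0.0141) and 1.75 ± 0.41 (adjusted p = 0.0171). In CCR8- Tregs these calls were lost without MLN CCR8- replicate 3 (0.102 for Pim1 and 0.0594 for Ctla4) or 4 (0.101 and 0.0649), and that of Pim1 without heart CCR8- replicate 2 (0.1005). In the opposite direction, Myc (-2.81 ± 0.59, adjusted p = 0.00438), Bcl2 (-2.26 ± 0.44, adjusted p = 0.00247) and Ccnd3, a cyclin (-2.47 ± 0.46, adjusted p = 0.00162), were lower in heart CCR8+ than in MLN CCR8+ Tregs. Pim2 passed in no comparison.

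Of 16 other inhibitors of JAK and STAT, limma called none between CCR8+ and CCR8- Tregs in either tissue, with 2 in heart and 7 in MLN at an unadjusted p under 0.05, against 11.1% and 17.7% of all genes. Socs3, the feedback inhibitor of STAT3 signalling, was higher in heart than in MLN in CCR8- Tregs (2.07 ± 0.44, adjusted p = 0.0105). In CCR8+ Tregs the phosphatases Ptpn6 (SHP-1; -2.43 ± 0.49, adjusted p = 0.00334) and Ptpn1 (-2.06 ± 0.46, adjusted p = 0.00718) were lower in heart, and the ubiquitin ligase Cblb was higher (2.34 ± 0.55, adjusted p = 0.0092). With the covariate for markers of other cells none of these 4 calls held, at differences of 2.11 for Socs3 (adjusted p = 0.445), -2.07 for Ptpn6 (0.105), -1.87 for Ptpn1 (0.13) and 2.49 for Cblb (0.0805). Among 7 other JAK and STAT genes, Jak2 was called as above, and Stat3 was higher in heart than in MLN CCR8- Tregs (1.70 ± 0.46, adjusted p = 0.04), a call that was lost without heart CCR8- replicate 2 (0.108), 3 (0.0693) or 4 (0.0988), heart CCR8+ replicate 3 (0.0508) or MLN CCR8- replicate 3 (0.0971) or 4 (0.123). It was also lost without the filter (0.0989), with only the compared groups (0.0939), with array weights (0.0565) and with the covariate for markers of other cells (1.19, adjusted p = 0.726). Of 15 tested adaptor and PI3K genes, Lck, a kinase of the T cell receptor, was lower in heart CCR8+ than in MLN CCR8+ Tregs (-1.55 ± 0.27, adjusted p = 0.000886), and none was called between CCR8+ and CCR8- Tregs, with 1 in heart and 2 in MLN at an unadjusted p under 0.05.

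The genes whose levels followed the members most closely over the 16 libraries were taken by Pearson's r, as a description, since libraries of a group share their condition. For Il2ra these were Rgs16 (0.896), Mif (0.873), Nhp2 (0.867), Ran (0.837) and Bmyc (0.834). For Cish they were Cd83 (0.869), Tnfrsf9 (0.857), Tnfrsf18 (0.839), Ccnd2 (0.833) and Ncl (0.833). For Socs2 they were Ebi3 (0.943), Sacm1l (0.837), Lrrc40 (0.827), C1qtnf12 (0.810) and Entpd6 (0.809), and for Socs1 they were Prcp (0.868), Cish (0.804), Supt16 (0.796), Insl6 (0.776) and Igflr1 (0.773). Among the members themselves the highest values were those of Jak1 with Stat5b (0.815), Socs1 with Cish (0.804), Il2ra with Cish (0.779), Stat5a with Stat5b (0.770) and Il2rb with Jak3 (0.768).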

How the data were processed

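RNA of about 100 sorted cells per library was made into libraries with the NEBNext Ultra RNA kit, per the labels' protocols. The submitters' processing notes name HISAT2 2.0.5, featureCounts 1.5.0-p3 and the mouse build mm10 (GRCm38). The deposited values were read as log2(FPKM + 1): unlogged they sum to 1007908 to 1007934 per library, and each library has the same maximum of 14.899, as after quantile normalization. For the log and normalization steps and the strand setting of the counting, nothing is given in the sources used here. FPKM and TPM cannot be told apart from these values; both are per length. FPKM had been assumed when the tests were planned, and the test stayed the same. Depth is unknown, so no counting interval is given.

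Of 19219 entries, 24 with names turned into dates were left out, which left 19195. The 10369 genes that reached an FPKM of 1 in 4 or more libraries were fitted with limma 3.58.1 in R 4.3.3, with 1 model over the 4 groups (12 residual and 7.01 prior degrees of freedom). A gene was called at a Benjamini-Hochberg adjusted p under 0.05. The interaction is the heart CCR8 difference minus that of the MLN. The fit was checked on simulated data. Named are all 10 members, Ccr8 and Foxp3, and from each pathway list the called genes of each comparison, up to 6 of smallest adjusted p. Also named are Il2, Il7r, Il15ra, Stat3, Socs3, Pim1, Pim2 and Bcl2 whatever their values, and the 5 tested genes with the highest Pearson's r for Il2ra, Socs1, Socs2 and Cish. Results of some genes covered by this rule or by the marker lists are not reported here. The members and lists were chosen with earlier results of these data known.

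Alternatives were a pseudocount of 0.1, no filter on low values, an FPKM minimum of 5, median-of-ratios factors, only the compared groups in the fit, a replicate block, array weights, a covariate (the mean of the fibroblast, endothelial, and macrophage and monocyte list means) and leaving out each library. That covariate follows tissue, so calls lost with it between heart and MLN cannot tell other cells from the tissue. Leaving out MLN CCR8- replicates 1 and 2, MLN CCR8- replicates 3 and 4, or heart CCR8- replicate 3 with heart CCR8+ replicate 2 was chosen after seeing the data. Gene positions are from GENCODE on GRCm38.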

Additional observations from a re-analysis of the deposited data

Results flagged for a closer look

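In groups of 4 libraries, a highest or lowest library far from the others by Dixon's criterion was found in 12 of 147 groups of values checked, and chance gives about 5 in 100. Among the members, Il2ra in heart CCR8+ replicate 4 (6.02) lay below the others of its group, as did Il2rg in heart CCR8- replicate 3 (9.05), the library highest for endothelial genes. In heart CCR8- Tregs, Pim1 (9.05) and Jak2 (8.04) were high in replicate 2. In heart CCR8+ Tregs, Myc was low (2.86) and Cd83 high (8.78) in replicate 2, the library highest for macrophage and monocyte genes, and Ctla4 was high in replicate 4 (10.78). In MLN CCR8- replicate 1, Foxp3 (5.72), Il2 (2.95) and Socs3 (5.46) were high. In MLN CCR8+ replicate 4, Cblb (1.88) and Id2 (5.54) were low.

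The CCR8 difference itself differed between heart and MLN for Myc, by -4.16 ± 0.83 on the log2 scale (limma, adjusted p = 0.0283), and for Id2, by 2.45 ± 0.38 (adjusted p = 0.00335). All 4 MLN CCR8+ libraries were above all 4 MLN CCR8- libraries for Myc and below them for Id2.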

How the results depend on the processing

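Il2ra and Cish kept their direction and call between the MLN groups under all 16 leave-one-out fits (highest adjusted p 0.00572 and 0.007) and all 11 other alternatives, and 3 to 5 members were called there without any 1 library. Members called in heart rose from 0 to 1 without MLN CCR8- replicates 1 and 2 or 3 and 4 (0 to 1 without any 1 library). Between the CCR8+ groups the count fell from 1 to 0 without the filter, with the covariate and without heart CCR8- replicate 3 and heart CCR8+ replicate 2 (0 to 1 without any 1 library). Between the CCR8- groups it was 2 with the FPKM minimum of 5 or median-of-ratios factors, 0 with only the compared groups, the covariate or without MLN CCR8- replicates 1 and 2, and 4 without replicates 3 and 4 (1 to 3 without any 1 library). For the interaction it was 2 without MLN CCR8- replicates 3 and 4 (0 to 1 without any 1 library), averaged over tissues 4 (2 to 3), and averaged over CCR8 3 (0 to 2), the last falling to 0 with the pseudocount of 0.1, without the filter and with the covariate. The cause was not tested.

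Signs turned only for differences that had not passed. With the covariate, Il2ra (0.56) and Cish (0.0612) turned positive and Socs2 negative (-0.0416; -0.0458 with array weights) between the CCR8+ groups, and Il2rg positive between the CCR8- groups (0.0866). Without MLN CCR8- replicates 1 and 2, Il2ra turned between the CCR8- groups (-0.0195) and in the tissue average (-0.0505), as did Il2rg (-0.0227) and Jak3 (0.0799) in that average and Stat5a (0.32) and Stat5b (0.38) between the MLN groups. Without MLN CCR8- replicates 3 and 4, Il2rg turned between the MLN groups (0.15) and the CCR8- groups (0.12). Without heart CCR8- replicate 3 and heart CCR8+ replicate 2, Il2rg turned between the CCR8- groups (0.11) and in the CCR8 average (-0.04), and Socs1 in heart (0.06). Jak3 in the tissue average also turned with the pseudocount (0.0408), median-of-ratios factors (0.0067) and array weights (0.01). Leaving out 1 library at a time gave -0.21 to 0.12 for Il2ra, -0.41 to 0.21 for Stat5b and -0.23 to 0.22 for Socs2 between the CCR8+ groups, and -0.26 to 0.0156 for Il2rg, -0.47 to 0.21 for Stat5a and -0.54 to 0.16 for Stat5b between the MLN groups. It gave -0.30 to 0.11 for Il2rg between the CCR8- groups, -0.31 to 0.33 for Jak3 in the tissue average and -0.47 to 0.0094 for Socs1 in heart.

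Over all genes, the heart count of 38 was 13 without the filter, 15 with only the compared groups, 16 with the covariate, 7 without heart CCR8- replicate 3 and heart CCR8+ replicate 2, and as low as 3 without 1 library. The MLN count of 429 was 263 with only the compared groups, 224 without MLN CCR8- replicates 1 and 2, and as low as 275 without 1 library, and the 1015 between the CCR8+ groups were 369 with the covariate. The 473 between the CCR8- groups were 305 without the filter, 273 with only the compared groups, 5 with the covariate, 212 without MLN CCR8- replicates 3 and 4, and as low as 268 without 1 library. The 42 of the interaction were 18 without the filter and 105 without MLN CCR8- replicates 3 and 4, the 341 averaged over tissues were 222, and 209 and 531 without MLN CCR8- replicates 1 and 2 or 3 and 4, and the 1442 averaged over CCR8 were 141 with the covariate. With median-of-ratios factors the MLN calls were 273 higher and 174 lower, beside 212 and 217.

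Same-numbered libraries of different groups did not deviate together (correlations of -0.09 to 0.06 over 24 pairs), so the numbers were not taken as pairs. With the replicate number as a block, 0 members were called in heart, 4 between the MLN groups, 1 between the CCR8+ groups, 1 between the CCR8- groups, 0 for the interaction, 2 averaged over tissues and 1 averaged over CCR8, as without it, and the heart count over all genes was 20. With it Stat3 lost its call between the CCR8- groups (adjusted p = 0.0548).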
